A study of Mus musculus with 70 samples.

Results

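The miR-3473 family is a set of mouse microRNAs that share a name and, in part, a sequence. Its members were taken as every entry of the deposited count table whose name starts with mmu-miR-3473, which gave 8 members (miR-3473a, b, c, d, e, f, g and h-5p) of 2029 entries. The family was selected on the measured fall of mmu-miR-3473b and mmu-miR-3473e in maturing microglia, so the age differences within microglia are given below as descriptions without a test. A microRNA is a short RNA that is cut from a hairpin precursor and guides Argonaute proteins to messenger RNAs, mainly through its seed, bases 2 to 8 counted from its 5′ end. Microglia are the resident macrophages of the brain, which settle there before birth and mature over the first postnatal weeks. The shared core of the family resembles the start of the B2 element, a short interspersed repeat found throughout the mouse genome.

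The libraries came from whole brains of wild-type C57BL/6 mice of both sexes at postnatal day 6 (P6), P15 and 8 weeks, with no treatment in any group. In each mouse, CD45+ cells were captured by immunopanning and are called microglia, although CD45 also marks monocytes and other macrophages, and the CD45- cells left over are called bulk cells. Each mouse gave 1 small RNA library per fraction. The pair of libraries from P6 female mouse 6 was not used. The 34 mice analysed (68 libraries) were 10 at P6, of which 4 were female and 6 male, and 12 each at P15 and 8 weeks. Library totals ranged from 1678034 to 5982922 counts in microglia and from 2795957 to 8747394 in bulk cells. Levels are given as CPM, the count scaled to a common library total, and 3 counts, the floor used here, corresponded to between 0.343 and 1.79 CPM. The summed level of 4 myeloid markers (miR-146a-5p, miR-223-3p and both arms of miR-142a) was 18451 to 56978 CPM in microglial libraries and 201 to 904 CPM in bulk libraries, with no overlap. That of 6 neuronal microRNAs was 14773 to 54933 CPM in microglial and 55305 to 174386 CPM in bulk libraries. Erythroid microRNAs (miR-451a and both arms of miR-144) summed to 8104 to 106939.9 CPM in microglial and 1725 to 10657 CPM in bulk libraries, and at each age the microglial libraries lay above the bulk libraries. In bulk libraries, fewer cells of a type and less RNA per cell cannot be told apart.

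All 8 members were matched to a mature sequence of RefSeq on GRCm38.p6, the build of the deposited data. The first set is shown because its members share a stretch with miR-3473b, the most counted member, and the capitals mark the seed.
miR-3473b: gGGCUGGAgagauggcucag
miR-3473e: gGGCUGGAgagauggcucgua
miR-3473a: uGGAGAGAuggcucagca
miR-3473f: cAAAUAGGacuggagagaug
miR-3473h-5p: uAGGGGCUggaaaggugacu
miR-3473g: cAAAAGUGaggcuggggaga
miR-3473b (20 bases) and miR-3473e (21 bases) have the same seed and the same first 18 bases. Position 19 is the first at which they differ (A19G, then G20U, with the miR-3473b base first and positions counted from the 5′ end). No other member shares their seed. The longest stretch shared with miR-3473b is 16 bases in miR-3473a, 11 in miR-3473f, 8 in miR-3473h-5p and 6 in miR-3473g.

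The remaining pair is shown because it runs the other way. Here the capitals mark the longest stretch that is the reverse complement of part of miR-3473b, 12 bases in miR-3473c and 8 in miR-3473d.
miR-3473c: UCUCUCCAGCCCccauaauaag
miR-3473d: ccaCUGAGCCAcuuuccagcccuu
Among other mature mouse microRNAs, none shares 12 or more bases in a row with a member. Sharing of a seed was limited to miR-882 with miR-3473a, miR-7649-3p with miR-3473c, and miR-674-5p and miR-1947-3p with miR-3473d. miR-674-5p, with 216569 counts in all, was the only one of these seed partners that was well covered.

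The members lie apart in the genome. The hairpin of miR-3473b is at chr10:41670739-41670793 on the plus strand, in an intron of Ccdc162, which is transcribed from the other strand. The hairpin of miR-3473e is at chr5:31667231-31667340 on the minus strand, in an intron of Rbks, the ribokinase gene, in the direction of that gene. The 55-base hairpin of miR-3473b begins with 20 bases that are the exact reverse complement of its mature sequence. The hairpins of miR-3473a and miR-3473f hold runs of 18 and 17 bases of miR-3473b. Of the 8 hairpins, only those of miR-3473b and miR-3473e contain the 18 bases that this pair shares. Those 18 bases also occur in the sense direction in annotated transcripts of 419 genes, 0.756% of 55450, and in the antisense direction in transcripts of 441 genes, 0.795%. The full miR-3473b sequence occurs in the sense direction in transcripts of 360 genes, and the full miR-3473e sequence in those of 1. The authors kept reads longer than 18 bases. An exactly matching read of that size reaches a base at which the hairpins of miR-3473b and miR-3473e differ. It can still come from other transcripts, since the full miR-3473b sequence occurs in those of 360 genes. The counts do not show how reads with mismatches were assigned or shared out.

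The other hairpins were found on the minus strand. That of miR-3473a is at chrX:162874918-162874995 in an intron of Syap1, that of miR-3473d at chr8:111016450-111016530 in an intron of Ddx19b, and that of miR-3473g at chr2:126902250-126902385 in an intron of Sppl2a. The hairpin of miR-3473f is at chr1:106546496-106546631 in an intron of Bcl2, the anti-apoptotic gene, and that of miR-3473h-5p at chr3:116667557-116667617 in an intron of Gm43191. The hairpin of miR-3473c, at chr1:191998554-191998634, overlaps an exon of Traf5, which encodes a signalling adaptor of tumour necrosis factor receptors.

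Of the 8 members, 7 passed the filter of at least 1 CPM in at least 5 libraries. miR-3473c did not. It had 4 counts over the 68 libraries, 3 in a P6 microglial library and 1 in a P15 microglial library. miR-3473b (112548 counts in all) and miR-3473e (107695) were well covered, and miR-3473a (3030), miR-3473d (1370), miR-3473g (439), miR-3473f (238) and miR-3473h-5p (164) followed. Of the 18 libraries in which miR-3473f reached 1 CPM, 16 were microglial, and of the 18 for miR-3473h-5p, 17 were. Both would have missed the filter on bulk libraries alone, so their differences between fractions are given without a test. miR-3473g reached 1 CPM in 24 microglial and 10 bulk libraries, miR-3473d in 34 and 27, and miR-3473a in all.

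In microglia, miR-3473b and miR-3473e dropped in both steps of maturation. miR-3473b ranged from 1507 to 5801 CPM at P6 (median 2271, n = 10), from 245 to 494 at P15 (median 413, n = 12) and from 19.0 to 42.5 at 8 weeks (median 31.1, n = 12). The ages did not overlap. miR-3473e ranged from 1485 to 5767 CPM at P6 (median 2247), from 229 to 459 at P15 (median 392) and from 16.0 to 38.9 at 8 weeks (median 27.5), again without overlap. The mean of miR-3473b was 7.22 times higher at P6 than at P15 and 12.5 times higher at P15 than at 8 weeks. In order of mean level, miR-3473b moved from position 51 of 1072 tested features in P6 microglia to 136 at P15 and 318 at 8 weeks. These levels describe the pattern that brought the pair to attention and were not tested.

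The size of the drop depended on the scaling. With TMM scaling, the fitted log2 difference between 8 weeks and P6 was -5.86 ± 0.15 (SE) for miR-3473b and -6.13 ± 0.15 for miR-3473e, while the median of all features was -0.17. With library size alone the values were -6.32 and -6.59. Among the 1072 features, 3 had a lower value than miR-3473b. In the same libraries the summed myeloid markers went from 24006 ± 8213 CPM (SD) at P6 to 47383 ± 7819 at 8 weeks. A pair of markers of multiciliated cells, miR-449a-5p and miR-34c-5p, went from 1309 ± 756 CPM to 56.7 ± 23.6 in microglia and from 3188 ± 1233 to 336 ± 71.6 in bulk cells. The part of other cells in the drop of miR-3473b was not tested. miR-3473b and miR-3473e together made up 99.3% ± 0.24 (SD) of the counts of the family in P6 microglia, 96.7% ± 0.86 at P15 and 79.4% ± 5.20 at 8 weeks.

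**Figure D1:**
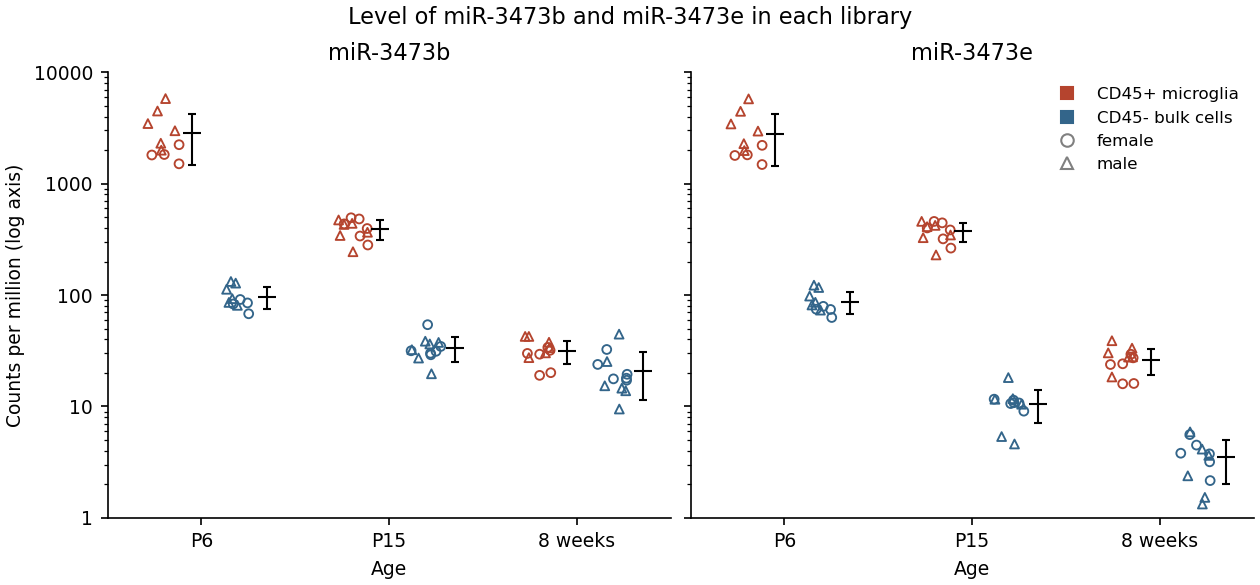
Level of miR-3473b (left) and miR-3473e (right) in CPM on a log axis, by age. Each point is 1 library (circles female, triangles male), in red for microglia and blue for bulk cells, and black bars give the mean and SD. The fractions are apart at P6 and P15 for both, and at 8 weeks for miR-3473e, while those of miR-3473b overlap at 8 weeks.

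To ask whether the pair also changed outside microglia, the ages were compared in bulk cells. The pattern that brought the pair to attention was in microglia, although earlier results of the bulk libraries were known too. miR-3473b ranged in bulk cells from 67.9 to 132 CPM at P6 (median 88.5), from 19.6 to 54.2 at P15 (median 31.9) and from 9.48 to 44.6 at 8 weeks (median 17.8). The P6 libraries lay above all others, and P15 and 8 weeks overlapped. miR-3473e ranged from 62.9 to 123 CPM at P6 (median 80.3), from 4.60 to 18.2 at P15 (median 10.8) and from 1.33 to 5.91 at 8 weeks (median 3.69). Here too P6 stood apart, and P15 and 8 weeks overlapped.

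Between P6 and P15, miR-3473e fell in bulk cells by 3.18 ± 0.20 (SE) on the log2 scale (limma, TREAT test of a log2 change over 1 in size, adjusted p = 3.72e-14). miR-3473b fell by 1.64 ± 0.16 (adjusted p = 0.00247). These were 2 of the 5 members that passed the filter on bulk libraries alone, against 1.68% of all features called lower. The pair is not independent here either, since its counts in P6 bulk cells differed by 5.14% to 13.2% of the miR-3473b counts. The call of miR-3473b was lost with library size alone (adjusted p = 0.0925), with DESeq2 (0.0551), without the filter (0.0589), with all libraries thinned to the total of the smallest (0.209) and without P15 male mouse 3 (0.0672). That of miR-3473e was lost in none of these. With the miR-3473e counts subtracted, the difference of miR-3473b turned to 1.22 (adjusted p = 1). Between P15 and 8 weeks neither was called (miR-3473e -1.18 ± 0.29, miR-3473b -0.32 ± 0.18, adjusted p = 1 for both), where 4.94% of all features were called lower. Without a fold threshold, miR-3473e was the 1 member to pass as lower in that step (adjusted p = 0.000432), with 19% of all features. From P6 to 8 weeks miR-3473e fell by 4.36 ± 0.26 (adjusted p = 1.16e-18) and miR-3473b by 1.96 ± 0.17 (adjusted p = 1.42e-06), again 2 of 5 members, against 12.4% of all features called lower. With the miR-3473e counts subtracted, miR-3473b differed by 1.17 (adjusted p = 0.512). The median log2 difference of the 5 members was -0.98, that of all features 0.32.

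Bulk libraries also held myeloid microRNAs. The mean level in bulk cells as a share of that in microglia was, in order of age, 3.08%, 2.83% and 13.4% for miR-3473e and 3.38%, 8.52% and 66.5% for miR-3473b. For the sum of the 4 myeloid markers, none of which was at 0, it was 1.17%, 1.79% and 1.08%. Over the same ages the bulk mean of 3 oligodendrocyte microRNAs went from 1899 ± 527 CPM (SD) to 17012 ± 3459 and 26338 ± 5406, and that of the 6 neuronal ones from 89029.6 ± 27149 to 116042 ± 14277 and 149199 ± 18802. The part of microglial RNA and of other cell types in the bulk values was not tested.

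Enrichment in microglia over bulk cells of the same mice was compared at each age. For miR-3473b and miR-3473e all these comparisons use microglial libraries in which the drop was known, so they are descriptions without a test. At P6, the fitted log2 difference between microglia and bulk cells was 4.65 ± 0.13 (SE) for miR-3473b and 4.79 ± 0.13 for miR-3473e, and either had a higher CPM in microglia in 10 of 10 mice. At P15 it was 3.76 ± 0.14 for miR-3473b and 5.37 ± 0.18 for miR-3473e, with a higher CPM in microglia in 12 of 12 mice. At 8 weeks it was 3.02 ± 0.25 for miR-3473e, in 12 of 12 mice. For miR-3473b it was 0.75 ± 0.17 at that age, with a higher CPM in microglia in 10 of 12 mice and overlapping fractions. From P6 to 8 weeks, the fitted difference in enrichment was -3.90 ± 0.21 for miR-3473b and -1.77 ± 0.28 for miR-3473e. The erythroid sum was also higher in microglia, at 18260 ± 11554 CPM (SD), 55842 ± 22941 and 23574 ± 8244 in order of age against 2049 ± 277, 6307 ± 2862 and 4485 ± 1102 in bulk cells, and its part in the differences between fractions, of these and the other members, was not tested.

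The counts of both members were then set side by side within each library. In no library was miR-3473e counted more often than miR-3473b. In P6 microglia the 2 counts were almost equal. The counts of miR-3473b in excess of miR-3473e came to 0.588% to 1.46% of the miR-3473b counts there (median 0.797%), to 2.89% to 8.01% in P15 microglia (median 5.60%) and to 8.28% to 32.9% in 8-week microglia (median 16.6%). In bulk cells the excess was 5.14% to 13.2% at P6 (median 9.04%), 52.9% to 80.4% at P15 (median 66.7%) and 73.7% to 90.7% at 8 weeks (median 83.4%).

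The log2 ratio of the 2 counts, which needs no scaling between libraries, rose with age in bulk cells. It was 0.14 ± 0.04 (SD, n = 10) at P6, 1.70 ± 0.39 (n = 12) at P15 and 2.56 ± 0.48 (n = 12) at 8 weeks. P15 differed from P6 by 1.56 ± 0.11 (SE; two-sided permutation test, p = 4e-05, adjusted over 3 comparisons 6e-05), with no overlap. The difference between 8 weeks and P15 was 0.86 ± 0.18 (permutation p = 8e-05, adjusted 8e-05), and these groups overlapped. In microglia the ratio was 0.013 ± 0.004, 0.08 ± 0.03 and 0.28 ± 0.14 at these ages. In each mouse it was lower in microglia than in bulk cells, by 0.13 ± 0.01 (SE, 10 mice) at P6, by 1.62 ± 0.11 (12 mice) at P15 and by 2.28 ± 0.15 (12 mice) at 8 weeks. The ratios that use microglial libraries were not tested.

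**Figure D2:**
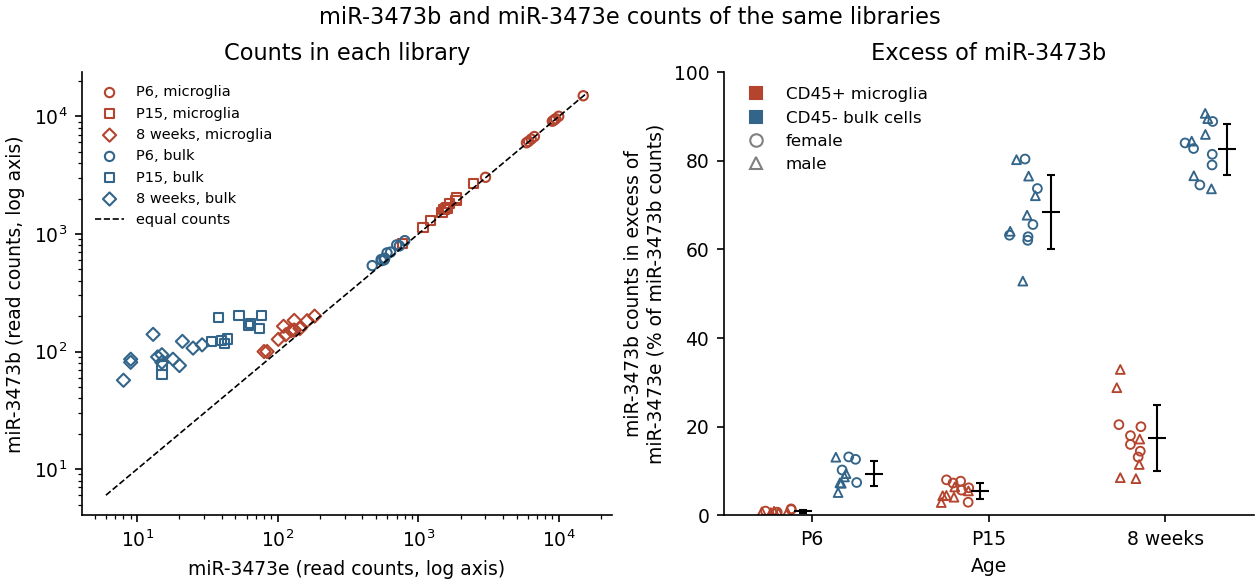
Left, read counts of miR-3473b against those of miR-3473e in each library, both on log axes, with the dashed line at equal counts. Right, miR-3473b counts in excess of miR-3473e as a percentage of the miR-3473b counts, by age, with the mean and SD in black. Microglial libraries lie near the line at P6 and P15, and bulk libraries of P15 and 8 weeks lie above it, with an excess of 52.9% to 90.7%.

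The excess itself, the miR-3473b level minus the miR-3473e level of the same library, followed another course than either member. This measure was added once the data had been seen. Its microglial mean was 22.6 ± 6.44 CPM (SD) at P6, 21.5 ± 9.07 at P15 and 5.42 ± 2.74 at 8 weeks. Its bulk mean was 9.06 ± 3.24 CPM at P6, 23.0 ± 7.28 at P15 and 17.5 ± 8.77 at 8 weeks. It was higher in microglia in all 10 mice at P6, in 4 of 12 at P15 and in none of the 12 at 8 weeks. In the fit with these excess counts in place of the miR-3473b counts, the log2 difference between microglia and bulk cells was, in order of age, 1.26, 0.07 and -1.56. Like the differences of the pair itself, these were not tested. Whether the counts in common were the same reads under both names was not tested.

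**Figure D3:**
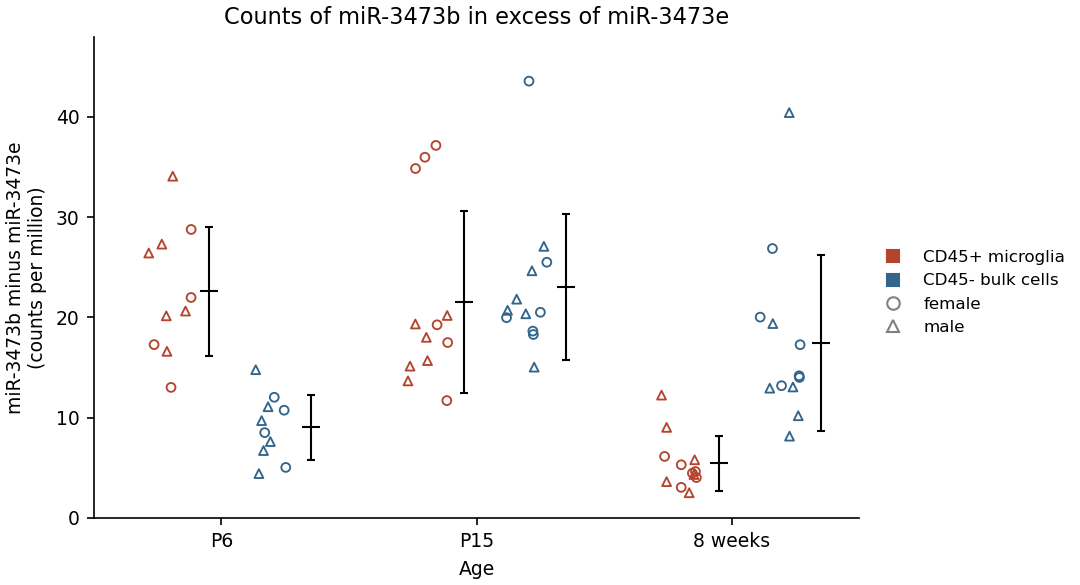
Level of miR-3473b minus level of miR-3473e in CPM, by age and fraction, with 1 point per library and the mean and SD in black. Microglia lie above bulk cells of the same mice at P6 and below them at 8 weeks.

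miR-3473a shares 16 bases with miR-3473b but has another seed, and its levels lay closer together. In microglia it ranged from 10.05 to 26.4 CPM at P6 (median 15.2), from 7.75 to 16.5 at P15 (median 10.8) and from 4.01 to 12.1 at 8 weeks (median 8.62). In bulk cells it ranged from 1.27 to 11.2 CPM at P6 (median 4.38), from 8.00 to 22.1 at P15 (median 11.7) and from 5.43 to 14.3 at 8 weeks (median 7.77). The ages overlapped in both fractions. At P6 miR-3473a stood 1.62 ± 0.23 above bulk cells in microglia (SE, log2, adjusted p = 0.0203), in 10 of 10 mice, a call lost when any 1 of 4 P6 mice was left out (female mouse 1 or 3, male mouse 1 or 2, adjusted p up to 0.127), with DESeq2 (0.0832) and with mouse as a fixed replicate block (0.0527). At P15 and 8 weeks its differences were 0.07 ± 0.20 and 0.11 ± 0.21 (adjusted p = 1 for both). In bulk cells its difference between P15 and P6 was 1.24 ± 0.23 (adjusted p = 1), opposite in sign to those of miR-3473b and miR-3473e, and without a fold threshold it passed (adjusted p = 1.08e-05), as did 17.8% of all features on the higher side.

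The sequence of miR-3473d holds part of the opposite strand of the core. It ranged in microglia from 4.34 to 15.1 CPM at P6 (median 8.72), from 4.10 to 12.7 at P15 (median 7.87) and from 2.54 to 6.68 at 8 weeks (median 4.22). In bulk cells it ranged from 0.915 to 6.08 CPM at P6, from 0.616 to 6.46 at P15 and from 0 to 3.40 at 8 weeks (medians 3.34, 2.15 and 1.54), and the fractions overlapped at each age. The log2 difference between microglia and bulk cells was 1.97 ± 0.29 (SE) at P15 (adjusted p = 0.00243) and 1.80 ± 0.33 at 8 weeks (adjusted p = 0.0218), in 11 of 12 mice at either age. At P6 it was 1.36 ± 0.28 (adjusted p = 0.276), with a higher CPM in microglia in 9 of 10 mice, and without a fold threshold it passed (adjusted p = 2.08e-05), as did 41.5% of all features on the higher side. Against P6, the fitted difference between fractions was larger by 0.61 ± 0.40 at P15 and by 0.44 ± 0.43 at 8 weeks, which was not tested. The 8-week call was lost without female mouse 6 (adjusted p = 0.0549), without male mouse 4 (0.153), with DESeq2 (0.0542) and with mouse as a fixed replicate block (0.0876). miR-674-5p, which has the same seed as miR-3473d but only 7 bases in a row in common with it, differed between fractions by 0.65 ± 0.12 at P15 and by -0.04 ± 0.12 at 8 weeks (adjusted p = 1 for both).

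The 3 members with fewest counts among those tested were mostly near the floor. miR-3473f ranged from 1.19 to 12.1 CPM in P6 microglia (median 3.70), and its 131 counts there stood against 14 in P6 bulk cells, 10 of them in 1 library. The fitted log2 difference between P6 microglia and bulk cells was 4.97 ± 0.50 (SE), with a higher CPM in microglia in 10 of 10 mice, and with all libraries thinned to the total of the smallest it was 3.30. As 7 of the 10 bulk libraries were at 0, the size of this fitted difference is imprecise. In microglia its counts came to 50 at P15 and 16 at 8 weeks, and the fitted log2 difference between 8 weeks and P6 was -3.54 ± 0.49, and -2.44 with thinned libraries.

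miR-3473h-5p had a median of 1.30 CPM in P6 microglia and of 1.38 in P15 microglia, against medians of 0.0712 and 0 in bulk cells. The fitted log2 difference between the fractions was 2.498 ± 0.503 (SE) at P6, where thinned libraries gave 1.28, and 3.11 ± 0.44 at P15, where they gave 2.19 and the bulk libraries held 9 counts in all. At 8 weeks its counts summed to 15 over 12 microglial and 5 over as many bulk libraries. miR-3473g had medians of 2.90, 2.96 and 1.16 CPM in microglia and of 0.585, 0.615 and 0.329 CPM in bulk cells at the 3 ages. It was called at none of them (1.88 ± 0.47 at P6, adjusted p = 0.110, 1.59 ± 0.41 at P15, 0.162, and 1.13 ± 0.46 at 8 weeks, 0.651). With the ages pooled its difference was 1.53 ± 0.26 (adjusted p = 0.0482). That call was lost when any 1 of 20 of the 34 mice was left out (adjusted p up to 0.145) and under 8 of 12 other settings (adjusted p up to 0.797).

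**Figure D4:**
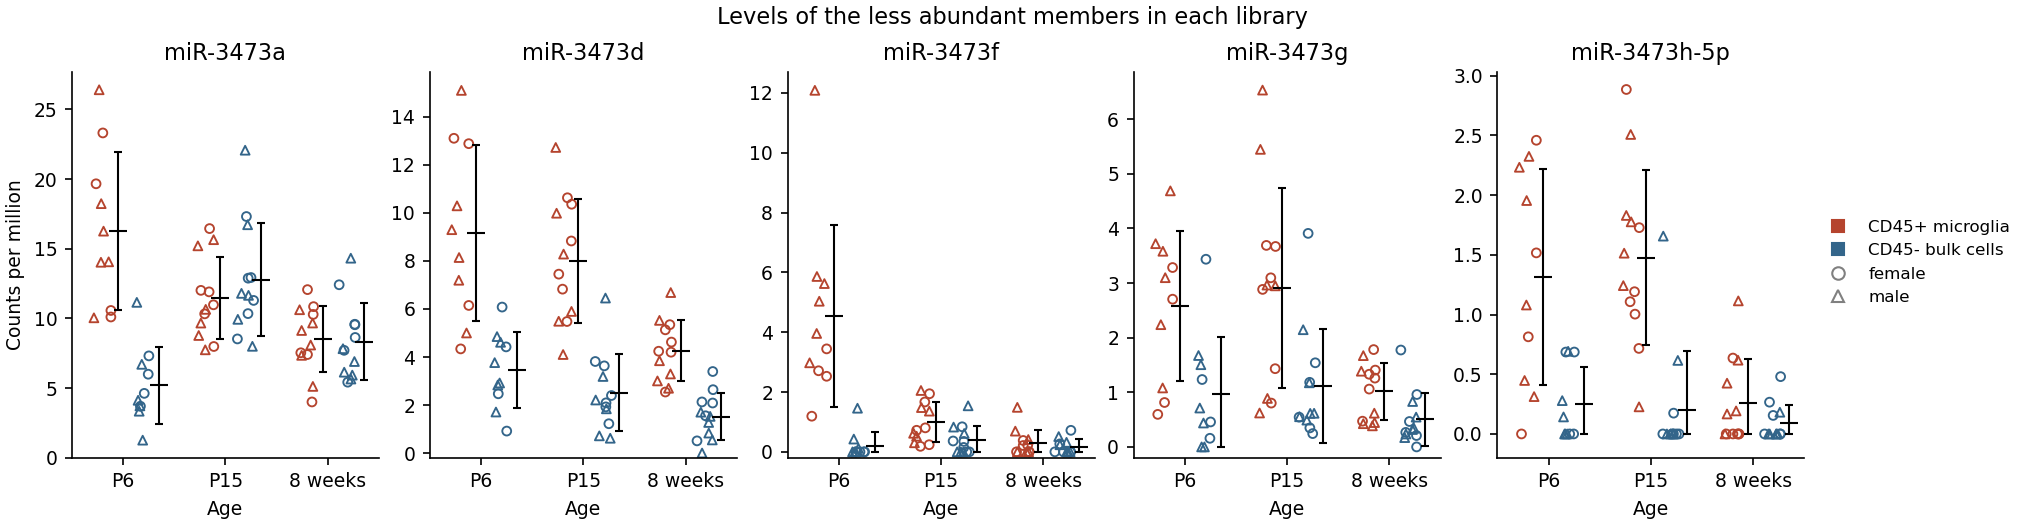
Levels of the 5 less abundant tested members in CPM, by age and fraction, on an axis of its own for each. Points are libraries and black bars the mean and SD, cut at 0. Bulk libraries at P6 lie mostly below microglial libraries, and the values of miR-3473f and miR-3473h-5p approach 0 at 8 weeks.

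Among miR-3473a, miR-3473d and miR-3473g, the 3 members tested between the fractions, 1 was called higher in microglia at P6 (miR-3473a), against 17.4% of all features tested. At P15 it was 1 (miR-3473d), against 21.3%, and at 8 weeks 1 (miR-3473d), against 21.2%. DESeq2 called none of them at P6 or 8 weeks. With the ages pooled it was 2, miR-3473d (1.71 ± 0.17, adjusted p = 0.000184) and miR-3473g, against 23.3%. None of the 3 was called lower at P6, P15 or 8 weeks, where 10.6%, 18.7% and 23.7% of all features were. Since miR-3473b and miR-3473e have nearly the same counts in microglia, they are not independent of each other. With all members summed, the family had fitted differences of 4.66, 3.91 and 1.18 in order of age.

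**Figure D5:**
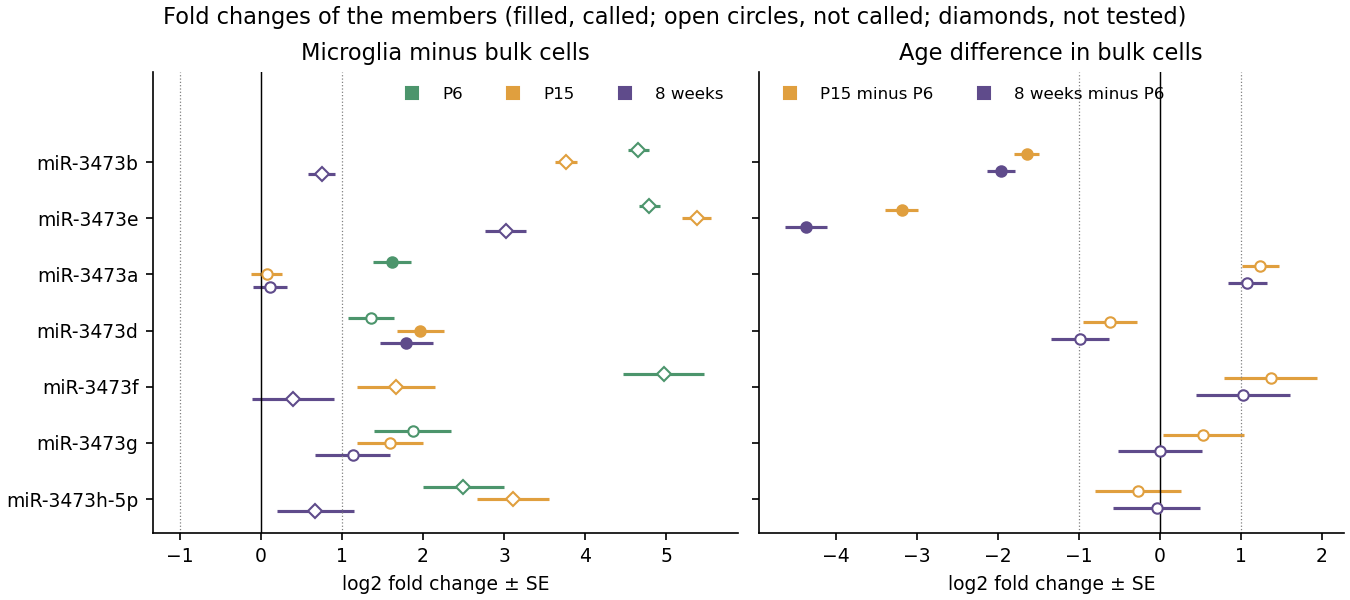
Left, log2 fold change between microglia and bulk cells for each tested member at the 3 ages. Right, log2 fold change in bulk cells of P15 and of 8 weeks against P6. Bars are SE, dotted lines mark an absolute log2 fold change of 1, filled circles passed the TREAT test at FDR 0.05, open circles did not, and diamonds were not tested. On the left, miR-3473a is filled at P6 and miR-3473d at P15 and 8 weeks, and on the right, miR-3473b and miR-3473e are filled for both ages. On the right miR-3473f and miR-3473h-5p are drawn as open circles, although they missed the filter on bulk libraries alone and were not counted as tested.

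Males and females were compared within each age and fraction. At the fold threshold limma called 0% of all features in P6 microglia. The microglial levels of miR-3473b and miR-3473e were known beforehand, so their sex differences there are descriptions without a test. In P6 microglia miR-3473b was at 1507, 1807, 1827 and 2237 CPM in the 4 females and ranged from 1997 to 5801 CPM in the 6 males (median 3223), with overlap. The difference was 0.74 ± 0.18 (SE) for miR-3473b and 0.75 ± 0.18 for miR-3473e, higher in males (adjusted p = 1 for both). Without the fold threshold both had an adjusted p of 0.0489 and were the 2 features of 1072 (0.187%) to pass, with all but equal counts. The sum of the 4 myeloid markers in these libraries was 18656 to 19604 CPM in females and 18451 to 44009 in males, and its part in the difference was not tested. At P15 and 8 weeks the differences of miR-3473b in microglia were -0.16 ± 0.17 and 0.30 ± 0.24.

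The 5 features outside the family with the profile most like that of miR-3473b were found by the root mean square difference of mean log2 CPM, centred on its own mean, over the 6 groups of age and fraction. Closest was miR-2137 (0.85), with 1357, 223 and 28.0 CPM in microglia and 33.1, 24.1 and 41.8 CPM in bulk cells at P6, P15 and 8 weeks. It was closer to miR-3473b than miR-3473e was (0.98). Then came miR-5128 (1.02), an unannotated candidate of the authors' prediction (1.06), miR-301b-3p (1.13) and miR-130b-3p (1.15), the last at 1085, 818 and 97.3 CPM in microglia. miR-3473f was at 1.24 and miR-3473a at 2.25.

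For comparison with another short repeat of the mouse genome, a list of 6 microRNAs held to derive from B1 elements was used, of which 3 were in the table. miR-1195 rose in bulk cells between P6 and 8 weeks by 2.94 ± 0.28 (SE, adjusted p = 1.66e-08), from 8.93 ± 4.23 CPM (SD) to 49.7 ± 14.6. miR-3470b rose by 1.74 ± 0.32 (adjusted p = 0.0487) and miR-3470a by 1.66 ± 0.29 (adjusted p = 0.0498). The call of miR-3470b was lost without any 1 of 10 mice (adjusted p up to 0.130) and that of miR-3470a without any 1 of 13 (up to 0.109), and they were lost under 6 and 8 of 12 other settings (adjusted p up to 0.346 and 0.547). That of miR-1195 was lost in none of these. As fitted, 3 of 3 were called higher, against 13.2% of all features, where miR-3473b and miR-3473e were called lower. In bulk cells between P6 and 8 weeks miR-3473a differed by 1.08 ± 0.24, miR-3473d by -0.98 ± 0.36 and miR-3473g by 0.009 ± 0.518. None of these was called. In microglia the fitted difference between 8 weeks and P6 was 2.49 ± 0.27 for miR-1195, 0.94 ± 0.33 for miR-3470a and 0.43 ± 0.34 for miR-3470b. The microglial mean of miR-3470a was 4.26 ± 2.43 CPM (SD) at P6 and 5.48 ± 3.66 at 8 weeks, and that of miR-3470b 5.60 ± 2.94 and 5.45 ± 3.16. None of the 3 was called between the fractions at any age (adjusted p from 0.432 to 1).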

How the data were processed

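Small RNA libraries (MGIEasy kit) were made by the authors from CD45+ and CD45- cells of each brain. Adapters and short reads had been removed with fastp 0.20.0, and reads were matched to mature microRNAs of miRBase and then to GRCm38 with miRDeep2. The deposited values are whole-number counts per entry, not normalised, and a read matching several precursors can be counted more than once. The table had 2029 entries of 1885 names. The entry with the largest total was kept per name, and 3 candidates identical to another were dropped. The mouse set aside was inferred from the libraries the authors list and remains uncertain.

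Features with 1 CPM in at least 5 libraries were kept (1072). Counts were scaled with TMM and fitted in R 4.3.3 by limma-voom (version 3.58.1, with edgeR 4.0.16) as 12 group means with mouse as a random effect (consensus correlation 0.12), since both fractions with one number come from one brain. Differences between fractions were tested for miR-3473a, miR-3473d and miR-3473g, since the rest were chosen on their microglial levels or passed the filter through microglia. Contrasts were averaged over the sexes and tested by TREAT for a log2 change over 1 in size, at a Benjamini-Hochberg FDR of 0.05 over all features. Adjusted p-values without a named test are from this fit. The code was tested on simulated counts. The log2 ratio used a pseudocount of 0.5. Members, lists and comparisons were chosen with earlier results of these data known. The features named besides the members were those sharing a seed, the 5 nearest profiles, the B1 list and cell type markers. Mature sequences and hairpin positions are from RefSeq (GRCm38.p6), and introns and transcripts from GENCODE. Alternatives were DESeq2 1.42.0, edgeR's quasi-likelihood test, other scalings, filters and blocks, thinning to the smallest library, summed entries or members, inclusion of the mouse set aside, and leaving out each mouse. Floors cover counting error only, as reads carried no molecular identifiers.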

Additional observations from a re-analysis of the deposited data

Results flagged for a closer look

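In the 12 groups of age, sex and fraction, 5 measures were examined, and in 4 of these 60 sets of values a library lay far from the others, where chance gives about 1 in 20 sets. In 8-week male bulk cells, mouse 6 had 14.3 CPM of miR-3473a against 5.65 to 7.83 in the other 5, and a miR-3473b excess over miR-3473e of 40.4 CPM against 8.15 to 19.4. In P15 female bulk cells, mouse 6 had 54.2 CPM of miR-3473b against 29.1 to 34.6, and an excess of 43.6 CPM against 18.3 to 25.5.

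The excess of miR-3473b over miR-3473e was higher in microglia than in bulk cells in each of 10 mice at P6 (ratio of means 2.497) and lower in each of 12 mice at 8 weeks (ratio of means 0.310). The difference between these ages was not tested.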

How the results depend on the processing

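With miR-3473e counts subtracted, a setting chosen after seeing the data, the log2 difference of miR-3473b between microglia and bulk cells was 1.26 at P6, 0.074 at P15, -1.56 at 8 weeks and -0.073 with the ages pooled, and between 8 weeks and P6 in enrichment -2.82. Between ages it was 1.22 (P15 minus P6) and 1.17 (8 weeks minus P6) in bulk cells, and 0.027, -1.67 (8 weeks minus P15) and -1.65 (8 weeks minus P6) in microglia. Between males and females in P6 microglia it was 0.14 with that setting, against 0.74 as fitted. The loss of the miR-3473e counts is the setting's own construction.

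Without a fold threshold, miR-3473e in bulk cells between P15 and 8 weeks (-1.18) passed. The sex difference in P6 microglia was 0.74 for miR-3473b and 0.75 for miR-3473e with that setting, as in the main fit. It is a description without a test, since the microglial levels of the pair were known beforehand. Of miR-3473a, miR-3473d and miR-3473g, 3 were called higher in microglia at P6 without the fold threshold, against 41.5% of all features. Without that threshold miR-3473g also passed at P15 (adjusted p = 0.000417) and 8 weeks (0.0235). Of the 5 members tested in bulk cells, 1 was called lower between P15 and 8 weeks, against 19% of all features. The fall of miR-3473b in bulk cells between P6 and P15 missed the threshold with DESeq2 without replicate block (-1.51), library size alone (-1.49), no filter (-1.56) and thinning (-1.47), which left 1 member called in each, and over left-out mice it ranged from -1.69 to -1.48, with 1 to 2 members called. Of miR-3473a, miR-3473d and miR-3473g, 0 were called at P6 and 0 at 8 weeks with DESeq2 without replicate block and with mouse as a fixed replicate block, which allows no comparison between ages, and 0 to 1 at either age over left-out mice. edgeR without replicate block called 2 at P15. Shares of all features called were computed only for the main limma fit, with and without the fold threshold. With the ages pooled, 1 was called with edgeR, DESeq2 or limma without replicate block, with the fixed replicate block, library size alone, no filter, the filter of 10 counts in 12 libraries and thinning, and 1 to 2 over left-out mice. In microglia, library size alone gave -6.32 for miR-3473b between P6 and 8 weeks, and the summed family gave 1.18 between fractions at 8 weeks and a change in enrichment of -3.48. miR-3473a at P15 changed sign with DESeq2 (-0.036), its size factors (-0.015), library size alone (-0.14), no filter (-0.032), the stricter filter (-0.19) and thinning (-0.013), and ranged from -0.15 to 0.16 over left-out mice. The causes were not tested. Over the values of miR-3473b and miR-3473e, their ratio and the counts of members called, 384 of 426 pairs of result and setting, and 1366 of 1394 with a mouse left out, kept direction and side of the threshold or, with no test, moved by less than the SD between replicates. The ratio was not tested again with mice left out. In these totals the sex difference of the pair in P6 microglia was judged by side of the threshold, although it is given here as a description. With P6 female mouse 6 included no such call changed. Depth limits miR-3473f, miR-3473g and miR-3473h-5p, which had 164 to 439 counts in all.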
